A study of Mus musculus with 16 samples.

Results

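Small heat shock proteins are chaperones of the alpha-crystallin family, and Bag3 is the co-chaperone that links several of them to Hsp70. The 8 genes described here are Hspb1, Hspb2, Hspb3, Hspb6, Hspb7, Hspb8, Cryab and Bag3, picked by name from a table of 23440 genes measured in mouse gastrocnemius, a mixed, mainly fast-fibred calf muscle. Hspb6, Cryab and Bag3 were chosen because their response to training was lower in Il13 knockout than in wild-type muscle. For these 3 genes the difference of responses, and the 4 group contrasts it is built from, are given as a description with no test. The other 5 genes belong to the same chaperone family and were not chosen one by one for their values, although genes of the heat shock response were already known to respond less in the knockout in these data.

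RNA was sequenced from 16 male C57Bl6/J mice aged 20 weeks, in 4 groups of 4 mice, with 1 library per mouse. The groups were wild-type mice (WT) left untrained, WT mice given endurance exercise by treadmill every day for 5 weeks, Il13-/- mice (KO) left untrained, and KO mice trained in the same way. Il13 encodes interleukin-13, a type 2 cytokine. The sources used here do not say how the Il13 allele was made, in which cells it is lost or whether the WT mice were littermates. The 4 libraries of a group are separate mice by their identifiers.

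Small heat shock proteins bind proteins that have begun to unfold and hold them until ATP-dependent chaperones of the Hsp70 family refold them or pass them on. In striated muscle they sit at the Z-disc, along desmin filaments and on titin, where contraction strains proteins. Bag3 carries short IPV motifs that bind small heat shock proteins, chiefly Hspb8 and Hspb6, and a BAG domain that binds Hsp70, and together with the ubiquitin ligase Stub1 it sends damaged filamin to lysosomes in a process called chaperone-assisted selective autophagy. Several genes of the family are induced by heat shock factor 1, which binds inverted repeats of the letters GAA in promoters. Cryab and several other members are more abundant in slow oxidative than in fast fibres.

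Levels are in RPKM, which divides the reads of a gene by its length and by the library total, and differences are on the log2(RPKM + 0.1) scale. All 8 genes passed the filter of at least 1 RPKM in at least 4 libraries, as did 10171 genes in all. Library totals recovered from the steps between RPKM values ran from 16307025 to 20074677 reads, and the least abundant of the 8 genes, Hspb3, had 164 to 235 reads per library. The 6 markers of skeletal muscle fibres summed to between 45020 and 60030 RPKM in every library. Il13 had 0 reads in each of the 8 WT libraries and 0 to 2 reads in each KO library. A count of 0 allows up to 3 reads, so these reads could not check the genotype labels. No sequencing batch or date is given.

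Some libraries stood apart in their fibre or tissue markers. The summed level of 16 slow oxidative fibre genes was 6262 RPKM in WT trained replicate 1, the highest of the 16 libraries, and 4579 and 4564 RPKM in KO untrained replicate 3 and KO trained replicate 3, the highest of their groups. In those same 2 KO libraries the 8 tendon markers summed to 230.5 and 207 RPKM, against 91.8 to 160.5 RPKM in the other 6 KO libraries. KO trained replicate 4 had the highest sums of the 16 libraries for macrophage markers, 92.8 RPKM, and for erythroid markers, 265 RPKM, against 37.2 to 59.0 and 90.7 to 166 RPKM in the rest of its group. Some, but not all, of the values that a single library moved by over 1.5 times are also given without that library. In bulk muscle, fewer cells of a type and less RNA per cell cannot be told apart.

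Promoter letters are shown first, for the genes that later move together or apart. RefSeq promoter windows on GRCm38.p6 matched 6 of the 8 genes, with 7 windows, since Hspb6 has a pair of start sites. Hspb2 and Cryab have no entry. The windows were searched, on both strands, for the shortest inverted pair of the GAA unit in either order, GAANNTTC or TTCNNGAA, both of which read the same on either strand. The stretches printed run 5′ to 3′ on the gene's own strand, from 150 to 41 bases before the start, and capitals mark the matches. They show a gene with a pair of matches, a gene with 1 match and the 2 genes without a match whose response to training differed most between genotypes among those without one.
Hspb1, plus strand, chr5:135887769-135887878: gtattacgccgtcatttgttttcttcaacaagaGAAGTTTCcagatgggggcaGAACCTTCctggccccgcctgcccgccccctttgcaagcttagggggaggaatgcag
Hspb6, plus strand, chr7:30553151-30553260: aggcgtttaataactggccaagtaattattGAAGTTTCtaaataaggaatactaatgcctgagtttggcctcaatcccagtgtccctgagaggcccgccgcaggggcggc
Bag3, plus strand, chr7:128523433-128523542: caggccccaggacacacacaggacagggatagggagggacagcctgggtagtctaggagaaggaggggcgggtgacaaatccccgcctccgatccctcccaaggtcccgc
Hspb7, plus strand, chr4:141420629-141420738: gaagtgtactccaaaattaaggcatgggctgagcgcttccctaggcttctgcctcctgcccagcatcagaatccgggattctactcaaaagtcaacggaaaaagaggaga

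Hspb1 had 2 matches, the nearer of which begins 97 bases before its start, Hspb6 had 1 at 120 bases before the start nearest to the deposited one and none in its other window, and Hspb3 had 1 further out, at 224 bases. The windows of Hspb7, Hspb8 and Bag3 held none. Among 32851 RefSeq windows of 250 bases, 12.8% held at least 1 match. These are matches of letters and no binding was measured.

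The 8 genes spanned a wide range of levels, and the order of levels was much the same across libraries. Hspb6, also called Hsp20, was the most abundant, with 415.1 to 961.7 RPKM over the 16 libraries and a mean of 597.7 RPKM, which put it at percentile 99.5 of the tested genes. Cryab, the alpha-B crystallin chaperone of desmin filaments, followed with 361.3 to 760.1 RPKM and a mean of 483.7 RPKM. Hspb6 was above Cryab in 15 of the 16 libraries, although their ranges overlapped. Hspb8, the partner of Bag3, averaged 266.3 RPKM, and Hspb1, the Hsp27 chaperone that binds actin filaments, averaged 121.9 RPKM.

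Hspb7, a small heat shock protein of heart and skeletal muscle that binds filamin C, averaged 90.2 RPKM, Bag3 56.6 RPKM and Hspb2 53.6 RPKM. Bag3 was above Hspb2 in only 10 of 16 libraries, so this pair had no clear order. Hspb3, which forms complexes with Hspb2, was the lowest at 14.0 RPKM, percentile 73.7. Only 3 neighbours in the order had ranges that did not overlap, namely Cryab above Hspb8, Hspb8 above Hspb1 and Hspb2 above Hspb3.

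**Figure D1:**
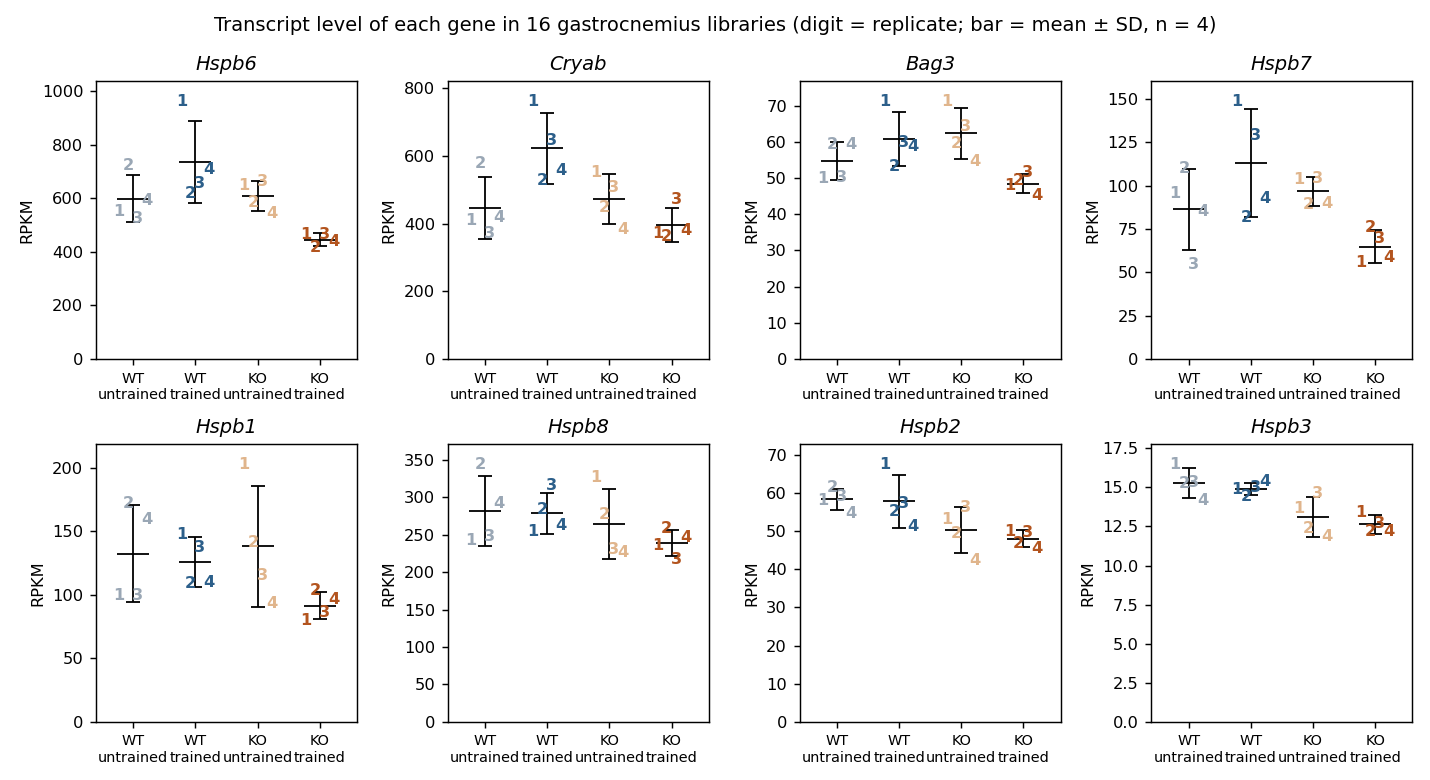
RPKM of each gene in each of the 16 libraries, by group; digits are replicates 1 to 4, the bar is the mean and the whisker the SD (n = 4), and every vertical axis starts at 0. Hspb6 in KO trained muscle (415.1 to 465.6 RPKM) lies under every other library, and Hspb2 and Hspb3 are lower in both KO groups.

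Hspb6, Cryab and Bag3 shared a pattern in which trained WT muscle was at or above untrained WT muscle and trained KO muscle was below untrained KO muscle. Because the choice of these genes rests on that pattern, their values are a description. Hspb6, at chr7:30553302-30555439 (mm10, plus strand), measured 551, 724, 527 and 592 RPKM in the 4 WT untrained libraries and 962, 619, 655 and 708 RPKM in the WT trained ones. It measured 649.9, 586, 662 and 543 RPKM in KO untrained and 464, 415, 466 and 440.0 RPKM in KO trained muscle. The WT groups overlapped, while all 4 KO trained libraries lay under all 12 others, the lowest of which held 527 RPKM. The log2 difference with training was 0.29 ± 0.12 (SE) in WT and -0.45 ± 0.12 in KO, a 1.22-fold higher and a 1.36-fold lower level, and the difference of responses was -0.74 ± 0.17. Without WT trained replicate 1, the highest library, the WT difference was 0.15 and the difference of responses -0.60.

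Cryab, at chr9:50752758-50756633 (plus strand), measured 409.9, 578, 372 and 419 RPKM in WT untrained and 760.1, 528, 646 and 556 RPKM in WT trained muscle. In KO mice it measured 551, 448, 508 and 383 RPKM untrained and 370.1, 361, 470.3 and 379 RPKM trained. Trained WT and trained KO muscle did not overlap, whereas WT untrained replicate 2 reached into the trained WT range and KO trained replicate 3 into the untrained KO range. The WT difference with training was 0.49 ± 0.15 and the KO difference -0.25 ± 0.15, so that the responses differed by -0.74 ± 0.21. Without KO trained replicate 3 the difference of responses was -0.83, and without WT trained replicate 1 it was -0.64. Of the 3 chosen genes, Cryab had the highest value for the WT response.

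Bag3, at chr7:128523583-128546979 (plus strand), measured 49.9, 59.3, 50.3 and 59.3 RPKM in WT untrained and 71.1, 53.2, 59.9 and 58.6 RPKM in WT trained muscle. It measured 71.1, 59.6, 64.1 and 54.7 RPKM in KO untrained and 48.0, 49.4, 51.4 and 45.1 RPKM in KO trained muscle. The KO groups did not overlap, and the WT groups did. The difference with training was 0.15 ± 0.09 in WT, or 0.07 without WT trained replicate 1, and -0.36 ± 0.09 in KO. The responses differed by -0.51 ± 0.13, and most of that came from the KO side, which was not so for Cryab. Untrained KO muscle was also 1.14-fold above untrained WT muscle for Bag3, with overlapping groups.

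With both KO replicate 3 libraries set aside, the difference of responses was -0.72 for Hspb6, -0.79 for Cryab and -0.52 for Bag3. Slow oxidative fibre genes were higher in trained than in untrained WT libraries, as Hspb6 and Cryab were by mean. In KO muscle the sum of the slow genes was nearly equal by mean in trained and untrained libraries, but a sum gives most weight to abundant genes. Gene by gene, 13 of the 16 were below 0 in KO training, as were 64.9% of all genes. Their median was -0.17, against -0.06 over all genes. The 16 listed genes, all of them in the table and none at 0 in every library, summed to 2863 to 3848 RPKM in WT untrained, 4833 to 6262 RPKM in WT trained, 2898 to 4579 RPKM in KO untrained and 3013 to 4564 RPKM in KO trained libraries. The KO means of that sum were 3616 ± 721 RPKM untrained and 3653 ± 666 RPKM trained (SD, n = 4). The tendon list summed to 115.1 to 145.6, 191 to 246, 138 to 230.5 and 91.8 to 207 RPKM in the same order of groups. The part of fibre makeup and of tendon in the chaperone values was not tested.

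**Figure D2:**
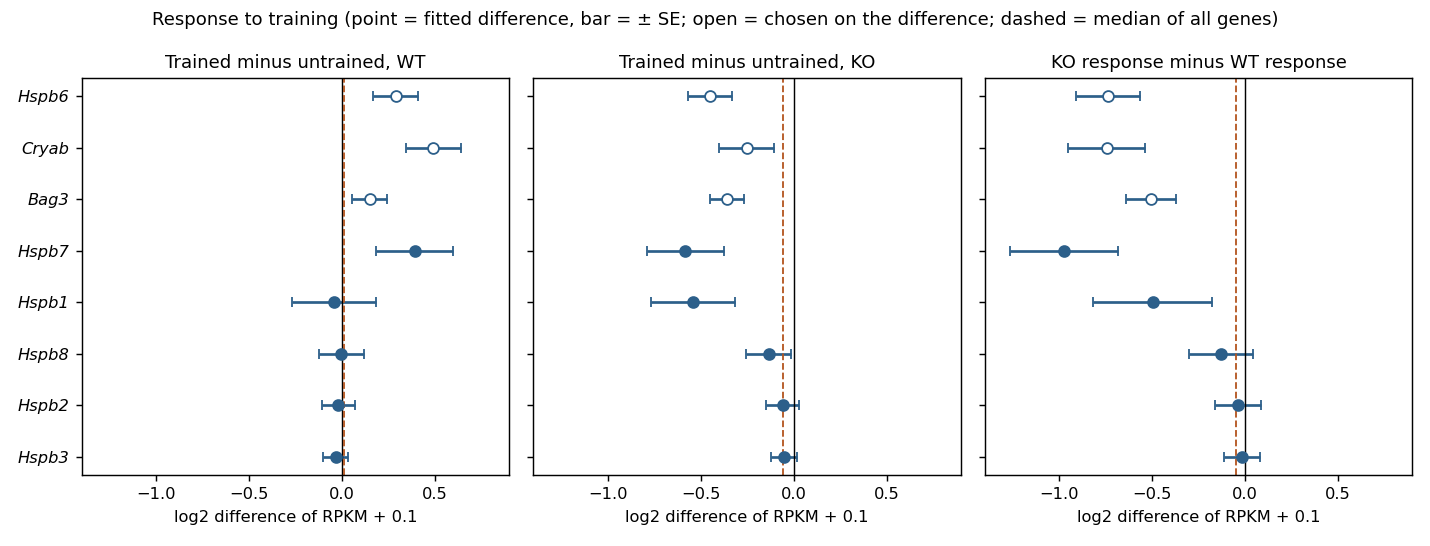
Fitted log2 difference between trained and untrained muscle in WT and in KO mice, and the difference between those responses, with SE bars; open points are the 3 genes chosen on the difference, filled points the other 5, and the dashed line is the median of 10171 genes. Hspb7 (-0.97) is furthest left in the right panel, while Hspb2 and Hspb3 sit near 0 in all panels.

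Hspb7 followed the chosen genes most closely among the other 5, and Hspb1 did so in KO muscle but not in WT muscle, by value. Hspb7, at chr4:141420779-141425310 (plus strand), measured 95.7, 110.2, 54.6 and 85.0 RPKM in WT untrained and 148.5, 81.9, 129 and 92.7 RPKM in WT trained muscle. It measured 104, 89.1, 104 and 89.8 RPKM in KO untrained and 55.6, 76.1, 69.3 and 58.7 RPKM in KO trained muscle. All 4 KO trained libraries were under the 4 KO untrained ones and under the 4 WT trained ones, and the WT groups overlapped widely.

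The difference of responses for Hspb7 was -0.97 ± 0.29 (limma, unadjusted p = 0.00464, adjusted p = 0.526 over 10171 genes), which does not pass 0.05. Its KO difference with training was -0.58 ± 0.21 (adjusted p = 0.267) and its WT difference 0.39 ± 0.21 (adjusted p = 0.489), with limma. Trained KO muscle held 1.70-fold less Hspb7 than trained WT muscle (log2 difference -0.77 ± 0.21, adjusted p = 0.1998, limma). The WT value rested on single libraries: it was 0.25 without WT trained replicate 1 and 0.19 without WT untrained replicate 3, the lowest library of its group.

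Hspb1, at chr5:135887919-135889563 (plus strand), had the largest SE of the 8 genes. It measured 99.4, 172, 99.6 and 159 RPKM in WT untrained, 147, 108, 137 and 109.7 RPKM in WT trained, 203, 140.9, 115 and 93.2 RPKM in KO untrained and 79.9, 103, 86.3 and 96.1 RPKM in KO trained muscle. The trained groups did not overlap, with the 4 KO libraries lower, but the untrained ones did. The KO difference with training was -0.54 ± 0.23 (limma, adjusted p = 0.313), and it was -0.33 without KO untrained replicate 1, which alone reached 203 RPKM. In WT the difference was -0.04 ± 0.23 (adjusted p = 0.961), and the difference of responses, -0.50 ± 0.32, had an adjusted p of 0.704 and was -0.29 without KO untrained replicate 1.

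Hspb8, at chr5:116408495-116422864 (minus strand), is the small heat shock protein that binds Bag3 in the autophagy complex, yet its values followed those of Bag3 only in part. It ranged from 242 to 344 RPKM in WT untrained, 254 to 316 RPKM in WT trained, 226 to 326 RPKM in KO untrained and 217 to 259 RPKM in KO trained muscle, with overlap in every pairing. The difference of responses was -0.13 ± 0.17 (limma, adjusted p = 0.851). Over the 16 libraries the Pearson r of log2 values was 0.47 between Hspb8 and Bag3, 0.84 between Hspb8 and Hspb1 and 0.80 between Hspb1 and Bag3. Without WT trained replicate 1 the r was 0.57, 0.88 and 0.81 in the same order. These points share the muscle sample and its library.

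Hspb2 and Hspb3 formed a different pair, with lower values in KO than in WT muscle whether trained or not and nearly equal values before and after training. Hspb3, at chr13:113662896-113663676 (minus strand), measured 16.5, 15.2, 15.3 and 14.2 RPKM in WT untrained and 14.8, 14.4, 14.99 and 15.4 RPKM in WT trained muscle. It measured 13.7, 12.3, 14.6 and 11.8 RPKM in KO untrained and 13.4, 12.2, 12.7 and 12.2 RPKM in KO trained muscle. Only 1 KO library, untrained replicate 3 with 14.6 RPKM, exceeded the lowest WT library. Averaged over training, 8 KO against 8 WT libraries, the log2 difference was -0.23 ± 0.05, a 1.17-fold lower level (limma, unadjusted p = 0.00019, adjusted p = 0.161).

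Over the other settings the adjusted p of that Hspb3 value ran from 0.0525, without KO untrained replicate 3, to 0.446. The untrained and trained contrasts gave -0.22 ± 0.07 and -0.24 ± 0.07, with limma adjusted p of 0.7801 and 0.201. The same trained WT libraries, and the same trained KO ones, enter the average and the trained contrast.

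Hspb2, at chr9:50751072-50752354 (minus strand), measured 58.1, 61.5, 59.2 and 54.7 RPKM in WT untrained and 67.6, 55.2, 57.2 and 51.4 RPKM in WT trained muscle. It measured 53.1, 49.5, 56.3 and 42.2 RPKM in KO untrained and 50.04, 46.9, 49.7 and 45.4 RPKM in KO trained muscle. The trained groups did not overlap, and the untrained groups did. The averaged genotype difference was -0.24 ± 0.06 (limma, unadjusted p = 0.00113, adjusted p = 0.297), or -0.22 ± 0.09 untrained and -0.26 ± 0.09 trained. The untrained value was -0.14 without KO untrained replicate 4. The difference of training responses was -0.04 ± 0.12 for Hspb2 and -0.02 ± 0.10 for Hspb3, with limma adjusted p of 0.944 and 0.973. The SEs limit what these near-zero values can show.

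Hspb2 and Cryab lie head to head on chromosome 9, with 403 bases between their deposited start sites. Cryab was 7.05, 9.41, 6.27 and 7.67 times the Hspb2 level in WT untrained and 11.2, 9.55, 11.3 and 10.8 times in WT trained muscle. In KO muscle the ratio was 10.4, 9.06, 9.02 and 9.06 untrained and 7.40, 7.71, 9.46 and 8.34 trained. The ratio carries the Cryab values that chose Cryab, so it is a description. The Pearson r of their log2 values was 0.65 over 16 libraries and 0.73 after removing group means, against 0.83 and 0.58 for Hspb2 with Hspb3, which is on another chromosome. In the GENCODE M21 annotation a longer Cryab transcript overlaps Hspb2 exons by 252 bases on the opposite strand. The libraries were stranded, per the labels, but the sources used here do not say whether counting used strand, so reads of that stretch could count for either gene.

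**Figure D3:**
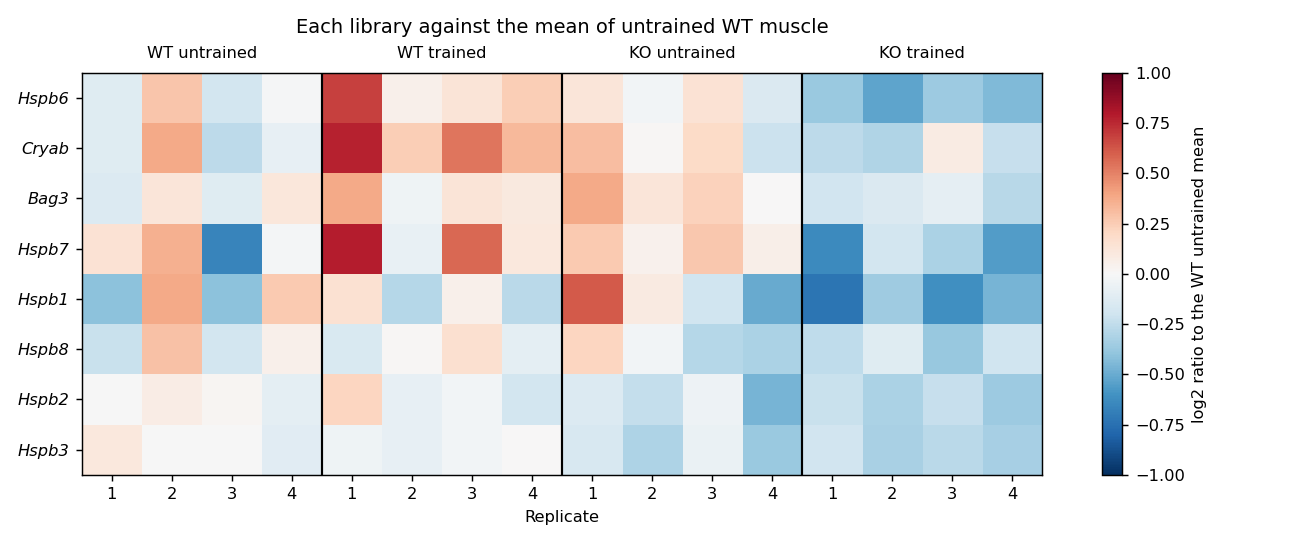
Log2 ratio of each gene in each library to its mean in untrained WT muscle; rows are genes, columns the 16 libraries by group and replicate, red higher and blue lower. WT trained replicate 1 is the reddest column for Hspb6, Cryab and Hspb7, and the KO trained block is blue for every gene apart from Cryab in replicate 3 (470.3 RPKM).

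In the tests open to each gene, none of the 8 passed an adjusted p of 0.05 with limma. In WT training, 0 of 5 tested genes passed and 0 had an unadjusted p under 0.05, while 0.187% of the 10171 genes were called and 1202 were under 0.05 unadjusted. Those 19 calls became 0 without WT untrained replicate 3, WT trained replicate 3 or WT trained replicate 4, and 272 without WT trained replicate 1. In KO training, 0 of 5 passed, with Hspb1 and Hspb7 (2 of 5) under 0.05 unadjusted, against 0.0% of all genes called and 1398 genes under 0.05 unadjusted. In the difference of responses, 0 of 5 passed and Hspb7 was under 0.05 unadjusted, with 0.0% of all genes called and 854 under 0.05 unadjusted. In KO against WT, 0 of 5 passed in untrained muscle, where Hspb2 and Hspb3 were under 0.05 unadjusted, as were 631 of all genes, and 0.0492% of all genes were called. In trained muscle 0 of 5 passed, Hspb2, Hspb3 and Hspb7 were under 0.05 unadjusted, as were 1409 of all genes, and 0.0885% of all genes were called. Voom on the recovered reads gave the same 0 calls and the same genes under 0.05 unadjusted in each contrast.

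The averaged contrasts are orthogonal to the difference of responses in this balanced design, and all 8 genes were tested in them. For training averaged over genotypes, 0 of 8 passed with limma and 0 were under 0.05 unadjusted, where 0.777% of all genes, 79, were called and 1830 were under 0.05 unadjusted. That background moved with single libraries, from 18 calls without WT trained replicate 4 to 1048 without WT trained replicate 1. The values lay between -0.29 for Hspb1 (adjusted p = 0.359) and 0.12 for Cryab (adjusted p = 0.584). For genotype averaged over training, 0 of 8 passed, Hspb2, Hspb3, Hspb6 and Cryab were under 0.05 unadjusted, as were 1238 of all genes, and 0.0787% of all genes were called. Averaged over training, Hspb6 was 1.26-fold lower in KO libraries (log2 difference -0.33 ± 0.09, adjusted p = 0.297, limma), or -0.20 after quantile normalization. Cryab was -0.28 ± 0.10 (adjusted p = 0.325, limma), or -0.15 after quantile normalization, Hspb7 -0.28, Hspb1 -0.20, Hspb8 -0.15 and Bag3 -0.07. For Hspb6 the average joined 0.03 in untrained and -0.70 in trained muscle, and for Cryab 0.09 and -0.65, so both averages came from trained muscle by value.

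The groups of 4 were also compared by whether they overlapped. Between trained WT and trained KO muscle, Hspb1, Hspb2, Hspb3 and Hspb7 were lower in KO in every library. These are 4 of the 5 genes not chosen one by one for their values, where 5.86% of all tested genes were lower without overlap. Heat shock genes were already known to respond less in the knockout in these data. Over the 16 libraries the Pearson r among these 4 genes ran from 0.25 to 0.83, so they are not separate counts. Hspb6, Cryab and Bag3 were also lower in KO without overlap, as part of what chose them. Between untrained and trained KO muscle, 1 of the 5, Hspb7, was lower without overlap, against 5.43% of all genes. None of the 8 separated between untrained and trained WT muscle, or between untrained KO and untrained WT muscle, against 6.37% and 3.95% of all genes in either direction.

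Over the 5 genes not chosen on it, the median difference of responses was -0.13, against -0.05 over all 10171 tested genes, and all 5 were below 0, as were 61.6% of all genes. With Hspb6, Cryab and Bag3, which were chosen on this value, the median of the 8 was -0.50, and nothing is read from that. The median of the 5 was -0.13 against -0.06 in KO training and -0.02 against 0.01 in WT training. For genotype averaged over training, which did not enter the choice, the median of the 8 was -0.24 against -0.02, with all 8 below 0, as were 59.6% of all genes, and that of the 5 was -0.23. In untrained muscle alone 3 of the 8 were below 0, as were 48.6% of all genes, with a median of 0.04. In trained muscle all 8 were, as were 65.2% of all genes, with a median of -0.39. These separate contrasts entered the choice of Hspb6, Cryab and Bag3, so they are a description.

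Among the members themselves, Hspb6 with Cryab had a Pearson r of 0.88 over the 16 libraries, 0.84 after removing group means and 0.82 without WT trained replicate 1. Hspb6 with Bag3 had 0.85, 0.82 and 0.80 in the same order. Without that library the closest pairs were Hspb2 with Hspb3 (0.89) and Hspb1 with Hspb8 (0.88). Hspb6, Cryab and Bag3 were chosen for a shared pattern, which their r includes. Hspb7 had r of 0.83 with both Hspb6 and Cryab. Hspb3 with Bag3 was among the loosest pairs, at 0.28. These are descriptions over libraries that share depth and tissue composition.

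The genes outside the family whose pattern was most like each chosen gene were found by the Pearson r of log2 values over 16 libraries. For Hspb6 they were Vgll2 (0.95), a cofactor of TEAD transcription factors in skeletal muscle, Txn2 (0.93), the mitochondrial thioredoxin, Itfg3 (0.93), S100a1 (0.93), a calcium-binding protein of muscle, and Mrpl38 (0.93), of the mitochondrial ribosome. Vgll2 measured 18.7 ± 5.79, 23.1 ± 7.62, 18.9 ± 3.80 and 13.1 ± 1.41 RPKM (mean ± SD, n = 4) in WT untrained, WT trained, KO untrained and KO trained muscle. Without WT trained replicate 1 its r was 0.92.

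For Cryab the closest was Actn2 (0.95), the alpha-actinin of Z-discs in heart and oxidative fibres, then Myh10 (0.93), a non-muscle myosin heavy chain, Myom3 (0.93), an M-band protein, Bdh1 (0.92), an enzyme of ketone body use, and Sdhaf2 (0.91), an assembly factor of succinate dehydrogenase. Actn2 measured 242 ± 41.1, 350.2 ± 50.6, 263 ± 33.1 and 239 ± 33.1 RPKM in the same order of groups. For Bag3 they were Flii (0.92), an actin-binding protein, Fam193b (0.91), Pacsin2 (0.90), a membrane-curving protein, and Ctsd (0.90), the lysosomal protease cathepsin D. No gene named here was among the closest to more than 1 of the 3.

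The wider chaperone system was read from lists of related genes. Some genes are in more than 1 list, among them Hspa8, Flnc, Myoz2 and Actn3, so list medians and counts are not separate. Of 35 genes for Hsp70, Hsp90 and their co-chaperones, all tested, 0 passed in the difference of responses with limma. The median was -0.14 and 26 were below 0, as were 61.6% of all genes. Their WT training median was 0.11, with 24 of 35 above 0, and their KO training median -0.03. St13, the Hsp70-interacting protein Hip, had a difference of responses of -0.36 ± 0.13 (adjusted p = 0.526, limma), Hspa9, the mitochondrial Hsp70, -0.20, Hsph1, an exchange factor of Hsp70, -0.43, and Hspa1l -0.34. The stress-inducible pair Hspa1a and Hspa1b, named here after their values were seen, ran from 1.28 to 18.03 and from 0.662 to 12.2 RPKM over the libraries, and their near-identical sequences leave the split of reads between them uncertain.

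The 12 partners of Bag3-dependent autophagy had a median difference of responses of -0.16, with 0 called by limma. Of them 10 were below 0, as were 61.6% of all genes. Flnc, filamin C, the client that Bag3 removes from Z-discs, averaged 89.3, 94.2, 107.7 and 78.9 RPKM in WT untrained, WT trained, KO untrained and KO trained muscle, with a difference of responses of -0.49 (adjusted p = 0.55, limma). Synpo2, which ties the complex to membranes for engulfment, was at -0.15, the ubiquitin ligase Stub1 at -0.18 and the constitutive Hsp70 Hspa8 at -0.20. The autophagy receptor Sqstm1, named for its training average, was at -0.22 in that contrast (adjusted p = 0.0755, limma) and -0.04 in the difference of responses. For these 12 genes 11 were below 0 in KO training and 6 in WT training, as were 64.9% and 47.6% of all genes.

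Bag3 was chosen for a low difference of responses, so the other BAG genes, which were not, are set beside it as a description only. Bag1, Bag2, Bag4, Bag5 and Bag6 had differences of responses between -0.08 and 0.10, with a median of 0.02 and 0 of 5 called by limma. Heat shock factors Hsf1, Hsf2 and Hsf4 and the factor-binding protein Hsbp1 had a median of 0.00, with Hsf1 at -0.13 and Hsf4 at 0.26, and 0 of 4 were called. Hsf1 averaged 17.0, 16.7, 17.2 and 15.3 RPKM over the 4 groups. Of 4 other genes listed beside the family, Cryaa and Hspb9 were at 0 in every library and Odf1 did not exceed 0.0549 RPKM. Hspb11, at 2.50 to 3.86 RPKM, had a difference of responses of 0.05.

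Among 13 desmin, filamin and Z-disc proteins, clients or neighbours of these chaperones, the median difference of responses was -0.22, with 0 called by limma. Of the 13, 10 were below 0, as were 61.6% of all genes. Myot, the filamin- and actinin-binding protein myotilin, was at -0.30, Actn2 at -0.68 and Myoz2, the calsarcin of slow fibres, at -0.75, all with a limma adjusted p of 0.526. Actn3, the alpha-actinin of fast fibres, went the other way by value, at 0.34. Desmin itself, encoded by Des, was at -0.02, with 1340.0, 1198, 1310.0 and 1151 RPKM in the 4 groups. Synm, the desmin partner synemin, was the 1 gene of this list called in training averaged over genotypes, where it fell by 0.16 on the log2 scale (limma, adjusted p = 0.0469). That call held in 7 of 26 alternatives, and its adjusted p ran from 0.00615 to 0.146 over them.

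The 16 slow oxidative fibre genes had a median difference of responses of -0.83, with all 16 below 0, and the 13 fast fibre genes a median of 0.14, with 12 above 0. Both lists had 0 genes called by limma in that contrast. In KO training 13 of the 16 slow genes were below 0, with a median of -0.17. In WT training all 16 slow genes were above 0 with a median of 0.72, and 2, Myh2 and Fhl1, were called higher. Both calls ended without WT untrained replicate 3 or 4, or without WT trained replicate 3 or 4, with an adjusted p between 0.0591 and 0.147 (limma), and the Myh2 call also ended without WT untrained replicate 1 (0.0778) or KO untrained replicate 1 (0.0501). With no filter on low values both had an adjusted p of 0.059. Of the 13 fast genes 12 were below 0 in WT training, as were 47.6% of all genes, with a median of -0.26. Tpm1 was the 1 fast gene called lower there (limma, adjusted p = 0.0365). For training averaged over genotypes 3 fast genes were called lower. In trained KO against trained WT muscle all 16 slow genes were below 0, as were 65.2% of all genes. Their median was -0.69, and 1 was called lower. Fhl1, a LIM protein of the sarcomere, was at -0.79 and Myh2, the type 2A myosin heavy chain, at -0.82 in the difference of responses. The difference of responses was below 0 for all 8 members too, as for 61.6% of all genes, and for Hspb6, Cryab and Bag3 the choice fixed that sign. The part of the slow fibre list in the member values was not tested.

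Markers of other cells that the muscle could hold were summed in the same way. The 6 smooth muscle and pericyte markers summed to 96.1 to 116, 95.7 to 129, 102.2 to 128 and 92.6 to 106 RPKM in WT untrained, WT trained, KO untrained and KO trained libraries. The 6 Schwann cell and nerve markers summed to 47.7 to 61.4, 32.6 to 93.7, 62.2 to 139 and 42.0 to 60.5 RPKM, and 6 adipocyte markers to 67.2 to 112, 62.0 to 130.3, 100.8 to 249 and 67.2 to 193 RPKM. No marker of these 3 lists was at 0 in every library. Their part in the chaperone values was not tested.

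**Figure D4:**
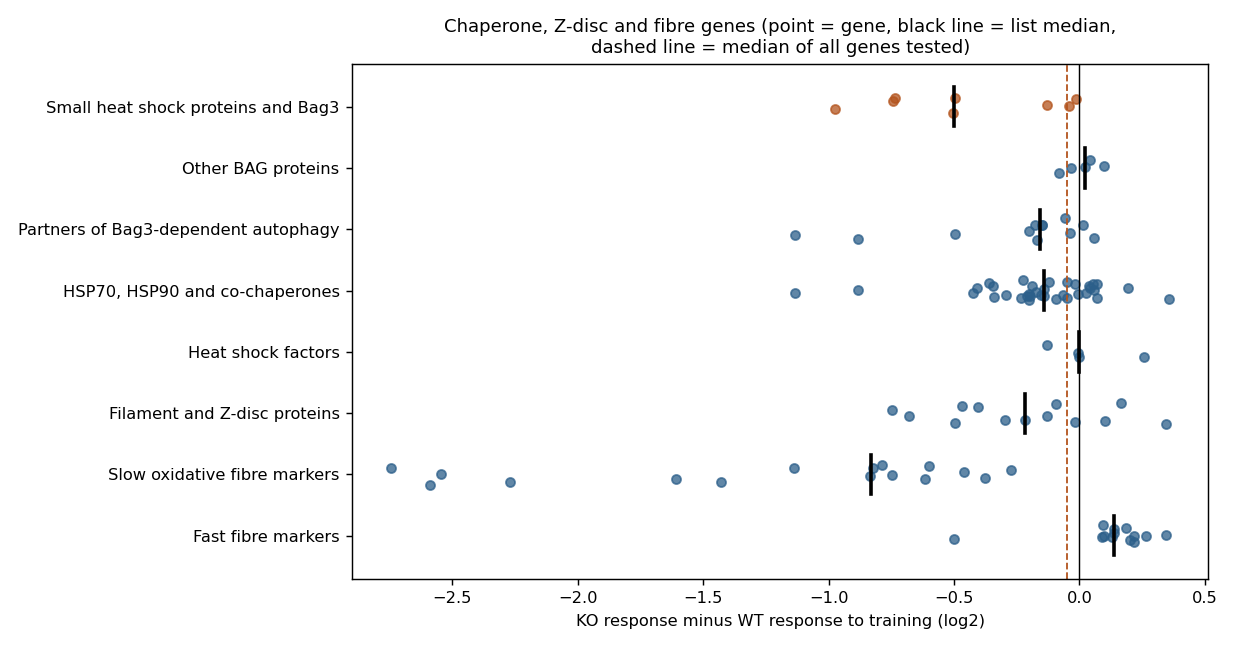
Difference between the KO and WT response to training (log2) for every tested gene of each list. Points are genes, black lines list medians, and the dashed line the median of 10171 genes. Some genes are in more than 1 list. The top row includes Hspb6, Cryab and Bag3, which were chosen on this value; the 5 other genes have a median of -0.13, the Z-disc list -0.22 and the slow fibre list -0.83.

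Reads in listed genes took a smaller share of library totals by mean in trained muscle, at 78.6% ± 3.51 (SD, n = 4) in WT trained and 76.7% ± 1.27 in KO trained, against 82.3% ± 1.57 and 79.9% ± 1.95 untrained. WT trained replicate 1, which had the highest Hspb6, Cryab and Hspb7 values, was the exception, with 83.5%, the highest share of the 16 libraries. RPKM is scaled to the library total, so a lower share lowers all genes together. With each library rescaled to its reads in listed genes, the KO training difference was -0.39 for Hspb6, -0.19 for Cryab, -0.30 for Bag3 and -0.52 for Hspb7, and the differences of responses were -0.75, -0.75, -0.51 and -0.98. This rescaling was chosen after seeing the data.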

How the data were processed

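Poly(A) RNA of 16 gastrocnemius muscles was sequenced from stranded libraries, per the labels' protocols. The deposited values are RPKM computed from trimmed reads, per the file headers, on the mm10 build named in the submitters' processing notes. The aligner, counting program, annotation, use of strand and filters were not given in the sources used here. Each column was matched to its group through mouse identifiers in the labels. RPKM steps gave whole reads for 100.0% of values within 0.01 read over 17402 genes above 0. The floor given for Il13 reads covers counting error only. The SEs and SDs include the spread between mice.

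Values were analysed as log2(RPKM + 0.1) for genes with at least 1 RPKM in 4 libraries, with limma 3.58.1 (trend, robust; statmod 1.5.0, R 4.3.3) in a single fit with 1 mean per group and 7 contrasts. Two-sided p-values were adjusted with the Benjamini-Hochberg method over all genes in each contrast, with a threshold of 0.05. The design text allowed for raw counts, but the file held RPKM. The fit was tested on simulated data, with changes planted in trained WT muscle only and no shifts of whole libraries. Many member differences were smaller than the planted ones, so that test does not speak to them. There were 27 alternatives: 16 each omitted a library, and the others changed the scaling, the filter, the pseudocount, the groups fitted, the replicate block, the weights per library, the unit (voom on recovered reads) or the KO libraries kept. Other steps used Python 3.11.15 (pandas 2.3.3, NumPy 2.4.6).

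The members and the gene lists were chosen with earlier results of these data known. The rule for naming takes every member, all genes of lists of up to 6, of longer lists the 4 with the smallest p in the difference of responses or in training averaged over genotypes, and the 5 genes most correlated with each of Hspb6, Cryab and Bag3. A gene that this rule names is not reported here.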

Additional observations from a re-analysis of the deposited data

Results flagged for a closer look

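Cryab in KO trained replicate 3 measured 470.3 RPKM, while the other 3 libraries of that group lay between 361.3 and 378.7 RPKM. The library was far enough from the others of its group to be singled out, as 1 of 32 groups checked (8 genes in 4 groups). Chance singles out about 1 in 20 groups, so 1 of 32 is not more than chance gives. The same library had the highest slow fibre sum of its group, 4564 RPKM, and its part in the Cryab value was not tested.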

How the results depend on the processing

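The count of members called was 0 in each of the 7 contrasts under every alternative run, which was 27 for the 4 contrasts of groups and 26 for the other 3. Of 1488 member values under alternatives, 1445 kept their direction and 43 reversed, in 12 results that all had a size of at most 0.0895 in the reported fit. With libraries rescaled to reads in listed genes, WT training became 0.025 for Hspb1, 0.048 for Hspb2, 0.032 for Hspb3 and 0.063 for Hspb8, averaged training 0.024 for Hspb2 and 0.020 for Hspb3, and KO training 0.0086 for Hspb3. With quantile normalization, WT training became 0.016 for Hspb2 and 0.039 for Hspb8, averaged training 0.0038 for Hspb2, KO training 0.00998 for Hspb3, the difference of responses 0.035 for Hspb3 and KO against WT untrained 0.018 for Hspb8. Weights per library gave 0.044 for Hspb8 in WT training. With both KO replicate 3 libraries set aside, chosen after seeing the data as was the rescaling, the difference of responses was 0.034 for Hspb3 and KO against WT untrained -0.0058 for Hspb6. The cause was not tested.

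Leaving out 1 library at a time, WT training ran from -0.16 to 0.098 for Hspb1, -0.097 to 0.036 for Hspb2, -0.071 to 0.0016 for Hspb3 and -0.073 to 0.097 for Hspb8. KO training ran from -0.097 to 0.0029 for Hspb3, the difference of responses from -0.12 to 0.037 for Hspb2 and -0.062 to 0.038 for Hspb3, and KO against WT untrained from -0.16 to 0.21 for Hspb1, -0.023 to 0.13 for Hspb6 and -0.19 to 0.012 for Hspb8.

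Same-numbered libraries did not deviate together in every pair of groups: of 24 library pairs, 5 had a correlation over 0.1, and 6 of 16 libraries were closest to one with their own number. Between the KO groups the correlations were 0.149, 0.191, 0.442 and 0.052 for replicates 1 to 4, so not every pair was over 0.1; the replicate 3 pair is the one with high slow fibre and tendon sums. With the replicate block the difference of responses of Hspb7 was -0.97 and no member was called. Over all genes, the block gave 16 calls in WT training against 19, and 31 against 79 in averaged training. Depth was at least 164 reads per member and library, and groups held 4 mice.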
